A study of Rattus norvegicus with 9 samples.

Results

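Lung tissue of rats that were ventilated mechanically with 100% oxygen was set against lung tissue of rats that breathed 21% oxygen on their own, so the groups differ in both the ventilator and the oxygen. Total RNA was measured on Affymetrix rat arrays, and the comparison uses 4 of the 8 samples of the series (5 of its 9 arrays). The combined group (mechanical, 100% oxygen) holds samples a and b, of which sample b was measured on 2 arrays, s2A and s2B, that were averaged as 1 sample, printed here as their mean intensity. The untreated group (spontaneous, 21% oxygen) also holds samples a and b. The remaining 4 samples, with 2 in each group, are lungs exposed to 100% oxygen while breathing spontaneously (oxygen alone) and lungs ventilated mechanically with 21% oxygen (ventilation alone). All 8 samples entered 1 fit. The labels give no strain, age, duration or ventilator setting and do not say that samples a and b are separate animals, so a p-value reflects no more than how far these samples lie apart, and that spread may be technical.

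Oxygen at high concentration raises the formation of reactive oxygen species, against which cells induce antioxidant enzymes and chaperones. Positive pressure stretches the alveolar wall, and stretched epithelium, endothelium and macrophages are known to transcribe immediate early genes and to release cytokines and chemokines, while surfactant from alveolar type 2 cells keeps the alveoli open.

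Of 3181 genes tested (1 probe set a gene, the brightest, in units of deposited intensity), 395 (12.4%) differed between the combined and the untreated group at an adjusted p under 0.05 with limma. Of these, 215 (6.76%) were higher and 180 (5.66%) were lower in the combined group. The counts of called members in each gene list below stand beside these shares. The median log2 change of all tested genes was 0.09. Both combined samples lay above both untreated samples in 1093 genes (34.4%) and below both in 706 (22.2%). Over probe sets, 761 of 5244 (14.5%) were called, 393 (7.49%) higher and 368 (7.02%) lower. The number of calls rested on single samples: it was 312 without combined sample a and 455 without untreated sample a. A log2 change throughout is a difference of mean log2(intensity + 40), given with its standard error, and a fold is 2 raised to that difference, which understates the change of dim genes.

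Direction depended on brightness. In the brightest 318 genes (geometric mean level of at least 4064), 9 were higher and 106 lower, with a median log2 change of -0.26, whereas in the other 2863 genes 206 were higher and 74 lower. The deposited arrays had the same trimmed mean (801 with 2% trimmed at each end), yet the 99th percentile of intensity was 7111 to 8352 on the 3 combined arrays and 12682 to 14547 on the 2 untreated ones. After quantile normalization, which gives all arrays the same distribution, the brightest genes held 63 higher and 47 lower calls with a median of 0.04, and the others 120 higher and 142 lower. Other scalings kept the brightest genes mostly lower, with 29 higher and 62 lower calls after cyclic loess normalization and 4 higher and 125 lower after median scaling. Scaling to the median instead turned the share of called probe sets that were higher from 51.6% to 29.9% and the median of all tested probe sets from 0.10 to -0.07. For bright genes the value after quantile normalization is therefore given beside the value as deposited.

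**Figure D1:**
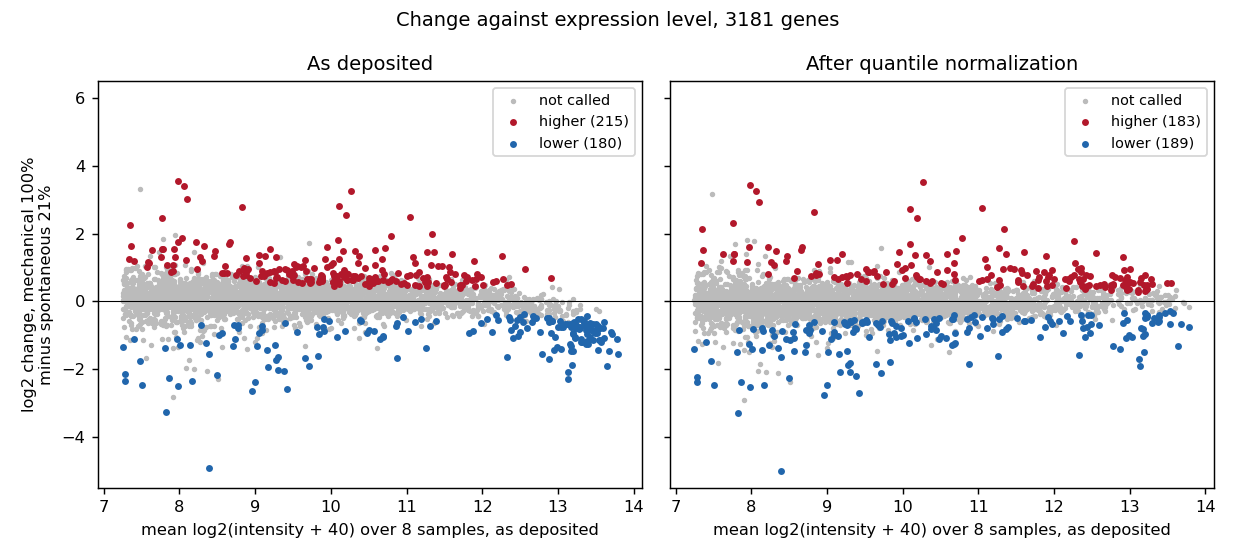
Log2 change (combined minus untreated, vertical axis) of each of 3181 genes against its mean log2(intensity + 40) over 8 samples (horizontal axis), as deposited (left) and after quantile normalization (right), with called genes in red (higher) and blue (lower). At the right end of the left panel nearly all called genes lie below 0, where the brightest 318 genes held 9 higher and 106 lower calls, and in the right panel those genes held 63 higher and 47 lower calls.

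Among the 20 largest called rises were immediate early transcription factors, cytokines and plasma proteins. Il6, Rup2 (a urinary protein gene), Nr4a1, Nr4a3, Crem and Ttr were among them, in an order that depends on the offset of 40 for a gene such as Il6 that was not above 0 in untreated lung. The 20 largest called falls included the keratin Krt4, the fatty acid binding protein Fabp4, the muscle troponin Tnnc2, the granzyme Gzmk, the interferon-induced GTPase Mx2 and the surfactant protein Sftpb.

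**Figure D2:**
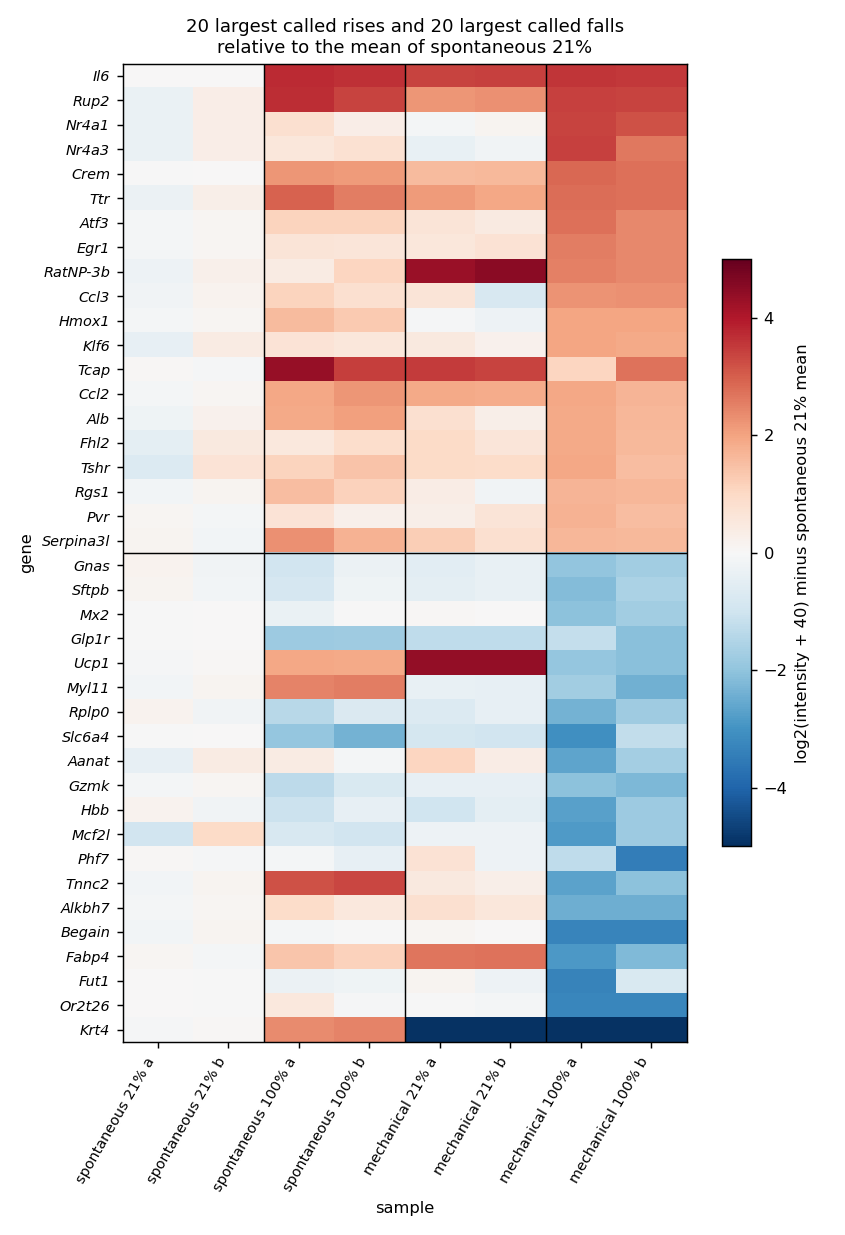
Heat map of the 20 largest called rises and the 20 largest called falls (rows) in all 8 samples (columns), coloured by log2(intensity + 40) minus the mean of the untreated samples, with sample b of the combined group drawn from the mean intensity of its 2 arrays. The columns of oxygen alone and ventilation alone differ from row to row: Il6 and Ccl2 are red in all 3 exposed groups, Nr4a1 and Nr4a3 are dark red only in the combined columns of the map, and Ucp1, Fabp4 and Tnnc2 are red in at least 1 single exposure and blue in the combined group.

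Immediate early genes are transcribed within minutes of a stimulus without new protein synthesis, and most encode transcription factors. Of 34 tested members, 14 were higher and 1 lower, with a median log2 change of 0.39 against 0.09 for all tested genes. Leaving out any 1 sample left 11 to 14 higher. Nr4a1, an orphan nuclear receptor, measured 466 and 751 in the untreated samples (a and b in this order throughout) and 6505 and 5636 in the combined ones. That was a rise of 3.27 ± 0.24 on the log2 scale (9.63-fold, adjusted p = 0.00019), and no sample came near the other group. Its paralogue Nr4a3 went from 79.3 and 153 to 1603 and 895 (3.03 ± 0.33, 8.16-fold, adjusted p = 0.0015), with the combined samples further apart from each other than those of Nr4a1. Crem, a modulator and product of cyclic AMP signalling, rose from 302 and 319 to 2532 and 2351 (2.82 ± 0.12, 7.08-fold, adjusted p = 2.1e-05). The stress-induced factor Atf3 read 487 and 566 in untreated and 3725 and 2907 in combined lung (2.56 ± 0.16, 5.9-fold, adjusted p = 0.00011). All of these separated the groups without overlap, a condition of the naming rule for the largest rises. The same order, combined above untreated, held in 34.4% of all tested genes.

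Egr1, a zinc finger factor induced by growth factors and mechanical stress, measured 997 and 1138 against 6424 and 5833 (2.48 ± 0.13, 5.57-fold, adjusted p = 3.8e-05). Of its other tested probe sets, 2 were also higher (2.56 and 1.31), and 1 was not called (-0.30, adjusted p = 0.67). Fos, a subunit of the AP-1 factor, rose from 1154 and 1065 to 3479 and 3334 (1.58 ± 0.12, 3.0-fold, adjusted p = 0.00024). Klf6, a zinc finger factor of injury responses, rose from 765 and 1378 to 4158 and 3953 (1.93 ± 0.24, adjusted p = 0.0026), with the untreated samples apart from each other but both below the combined ones. Zfp36 encodes tristetraprolin, which marks cytokine mRNAs for decay. It rose from 1788 and 1754 to 4427 and 4399 (1.30 ± 0.13, 2.46-fold, adjusted p = 0.00089), while its other probe set was not called (0.27, adjusted p = 0.27). The 6 other called members, Jun, Junb, Egr2, Myc, Cebpb and Pim3, which the naming rule did not pick, rose by 0.67 to 1.55. The member that fell was Id1, an inhibitor of helix-loop-helix factors, at -0.48.

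**Figure D3:**
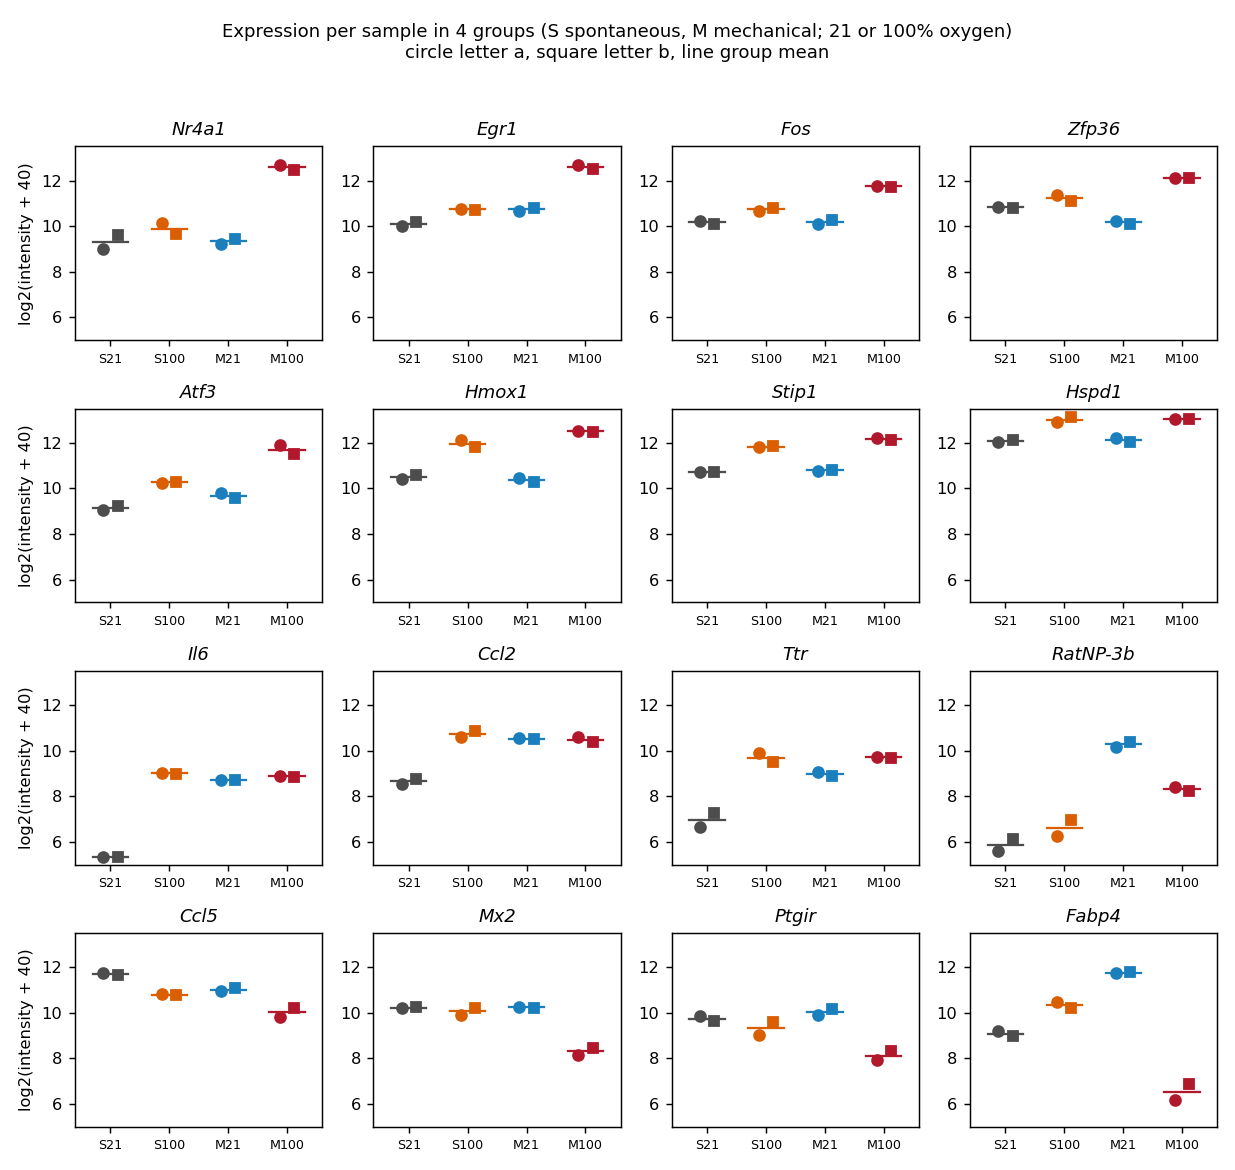
Log2(intensity + 40) of 16 genes (1 panel each) in the 4 groups, S for spontaneous and M for mechanical with the percent of oxygen, with sample a as a circle, sample b as a square (mean of its 2 arrays in M100) and the group mean as a line. Nr4a1, Egr1, Fos, Zfp36 and Atf3 are highest in both M100 samples, Il6 is at the floor of the scale in both S21 samples and raised in every other sample, and Ccl5, Mx2, Ptgir and Fabp4 are lowest in both M100 samples.

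Of 33 tested cytokine, chemokine and adhesion genes, 9 were higher and 1 lower, with a median log2 change of 0.45. The count was less stable than that of the immediate early genes: 3 were higher without combined sample a, 5 without combined sample b and 4 without untreated sample a. Il6, the cytokine that drives the acute phase response, was at or below 0 in both untreated samples (-17.7 and -54.4) and read 432 and 425 in the combined ones. The difference on the log2(intensity + 40) scale was 3.55 ± 0.20 (adjusted p = 6.7e-05), with no fold given because the untreated level was not above 0. Ccl2, which recruits monocytes, rose from 334 and 396 to 1512 and 1275 (1.82 ± 0.16, 3.54-fold, adjusted p = 0.00041). Il1a, an alarm cytokine held in epithelium and macrophages, rose from 1133 and 1050.5 to 2412 and 2044 (1.00 ± 0.14, 2.0-fold, adjusted p = 0.0036). Il1a and Ccl2 stayed called under all 23 alternatives and Il6 under those in which it was tested (the filter of 60% leaves it out), while another probe set of Il1a was not called.

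The macrophage chemokine Ccl3 rose from 44.8 and 65.9 to 408 and 422 (2.26 ± 0.44, adjusted p = 0.012), a call that was lost without untreated sample a (2.10, adjusted p = 0.063). Nos2, the inducible nitric oxide synthase, rose from 171 and 256 to 569.8 and 611 (1.34 ± 0.26, adjusted p = 0.012). Its call was lost without untreated sample a (1.09, adjusted p = 0.063), combined sample a (1.38, 0.059) or combined sample b (1.29, 0.05). Ccl5, a chemokine made by T and natural killer cells, went the other way, from 3351 and 3203 in untreated to 857 and 1159.7 in combined lung (-1.68 ± 0.15, 3.2-fold lower, adjusted p = 0.00058). Both combined samples of Ccl5 lay far below both untreated ones, an order that held in 22.2% of all tested genes. Cxcl2, a neutrophil chemokine, and Cdkn1a, a cell cycle inhibitor, were too dim to be tested.

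The Il6 promoter is shown because Il6 was at or below 0 in both untreated samples and above 0 in the other 6. These are the 250 bases before the start of the gene on the minus strand (chr4:5894576-5894825, build GRCr8, RefSeq), with the cyclic AMP response element (TGACGTCA, first base at -162) and the kappa B site (first base at -68) in capitals.
Il6: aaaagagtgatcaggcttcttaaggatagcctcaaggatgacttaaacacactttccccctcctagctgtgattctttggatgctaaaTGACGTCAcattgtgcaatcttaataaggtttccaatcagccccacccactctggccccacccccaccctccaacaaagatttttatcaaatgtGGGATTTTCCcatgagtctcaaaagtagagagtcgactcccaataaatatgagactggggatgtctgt
Each match is a description of the letters and not a measured site. In windows from 250 bases before to 50 after the start, searched on both strands, a cyclic AMP response element was found in 1.91% of 27457 promoters, in 2.49% of 2614 promoters of tested genes and in 3.43% of 175 promoters of risen genes. The corresponding shares for the kappa B site were 7.60%, 10.1% and 12.6%.

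Chaperones fold new and damaged proteins, and heat shock factor induces them when proteins unfold. Of 22 tested heat shock and cytosolic chaperone genes, 9 were higher and 2 lower, with a median log2 change of 0.58, and leaving out any 1 sample left 7 to 10 higher. Stip1, which hands client proteins from HSP70 to HSP90, read 1626 and 1649 in untreated and 4715 and 4368 in combined lung (1.45 ± 0.11, 2.73-fold, adjusted p = 0.00019). The HSP90 cochaperone Fkbp4 rose from 2280.4 and 1781 to 5250.00 and 5435 (1.39 ± 0.14, adjusted p = 0.001). Dnajb1, the HSP40 partner of HSP70, rose from 2403 and 2497 to 5808 and 5540.2 (1.20 ± 0.12, adjusted p = 0.00091). In all 3, samples of one group lay nearer to each other than to those of the other group, although the untreated samples of Fkbp4 lay further apart. Both combined samples lay above both untreated ones in 34.4% of all tested genes. St13, an HSP70-interacting protein, rose from 2012 and 2009 to 4314 and 4029 (1.04 ± 0.11, adjusted p = 0.0015). Hspd1, the mitochondrial HSP60, rose from 4180.4 and 4399.7 to 8398 and 8303 (0.95 ± 0.12, adjusted p = 0.0026), and by 1.42 after quantile normalization. Hspa4, Hspa9, Cryab and Chordc1, called but outside the naming rule, rose by 0.70 to 1.01.

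The inducible HSP70 gene Hspa1a was not called: it measured 6936 and 6995 in untreated and 5617 and 6154 in combined lung (-0.25 ± 0.16, adjusted p = 0.36), with a sign that turned after quantile normalization (0.064). Hspb1, the small heat shock protein HSP27, fell from 22723 and 19425 to 6148 and 8308 (-1.56 ± 0.19, adjusted p = 0.0025, -0.74 after quantile normalization). Its other tested probe sets disagreed in size: -5.52 and -1.83, both called, and 0.0066, not called. The other member that fell, Hsp90ab1 (-1.46), is the constitutive HSP90.

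Dnajb1 and Hspd1 were picked for printing after the values were seen. Both rose and hold the heat shock element (GAANNTTC or TTCNNGAA, in capitals) before the start of the gene. Stip1 and Fkbp4 also rose and hold it before the start, at -8 and -137, and are not printed. Dnajb1 lies on the minus strand at chr19:41431142-41431391 and Hspd1 on the minus strand at chr9:64084038-64084287, both in build GRCr8 from RefSeq. The match of Dnajb1 begins at -11 and those of Hspd1 at -242 and -232. Another match of Dnajb1, at +18, lies past the bases printed.
Dnajb1: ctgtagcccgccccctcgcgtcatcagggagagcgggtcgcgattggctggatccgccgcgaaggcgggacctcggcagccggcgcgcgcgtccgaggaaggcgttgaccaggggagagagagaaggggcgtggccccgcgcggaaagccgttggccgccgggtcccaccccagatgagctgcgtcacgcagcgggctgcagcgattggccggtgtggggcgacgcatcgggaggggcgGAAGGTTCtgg
Hspd1: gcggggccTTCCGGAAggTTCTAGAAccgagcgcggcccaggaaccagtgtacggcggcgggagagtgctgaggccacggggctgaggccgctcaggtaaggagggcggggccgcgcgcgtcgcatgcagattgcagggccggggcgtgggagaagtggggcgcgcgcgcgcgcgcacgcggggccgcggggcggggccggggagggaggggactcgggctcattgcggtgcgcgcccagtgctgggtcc
The element was present in 15.4% of all promoters, in 11.1% of those of tested genes and in 35 of the 175 of risen genes.

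Antioxidant genes did not move together: of 36 tested, 3 were higher and 3 lower (2 and 5 after median scaling), with a median log2 change of -0.03. Without untreated sample a or without combined sample a, 1 was higher and 1 lower, and without either sample of oxygen alone 6 were lower. Hmox1, heme oxygenase, which degrades heme, had the largest rise of them, from 1332 and 1517 to 5755 and 5691 (1.98 ± 0.14, 3.94-fold, adjusted p = 0.00019). Txnrd1, thioredoxin reductase, rose from 2151 and 2487 to 4635 and 3966 (0.88 ± 0.20, adjusted p = 0.023). Its call was lost without untreated sample a (0.77, adjusted p = 0.11) and without combined sample a (0.76, 0.13), whereas Hmox1 was called in every fit in which it was tested.

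Nqo1, a quinone reductase that also counts among the aryl hydrocarbon receptor targets, rose from 1769.9 and 1682 to 2259 and 2646 (0.49 ± 0.13, adjusted p = 0.044) and lost its call without each of the 8 samples in turn. Without combined sample b, the weakest of these fits, its value was 0.38 (adjusted p = 0.17). Gpx3, the extracellular glutathione peroxidase, fell from 16229 and 13781 to 6416 and 6917 (-1.17 ± 0.17, adjusted p = 0.0041, -0.40 after quantile normalization). The lower antioxidant genes also included Prdx6 (-0.755), whose other probe sets were not called (0.54 and -0.16). In the endoplasmic reticulum list 4 of 17 were higher and 1 lower (7 and 1 after quantile normalization, 4 and 3 after median scaling), with 2 higher without untreated sample a or without combined sample a. Pdia4, a protein disulfide isomerase, was among the higher, at 1918 and 2098 in untreated and 3910.1 and 3479 in combined lung (0.86 ± 0.13, adjusted p = 0.0041). Hsp90b1, the lower member as deposited (-0.84), was not called on its other probe sets (0.47 and 0.15).

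Genes that define the alveolar epithelium were bright, as the lung label implies, and several were lower. In bulk tissue, fewer cells of a type and less RNA per cell cannot be told apart. Of 11 tested surfactant and alveolar type 2 genes, none was higher and 4 were lower, with a median log2 change of -0.26. After quantile normalization 2 were higher and 3 lower. Sftpb, the surfactant protein needed to spread the film, measured 23281 and 18873 in untreated and 4591 and 6926 in combined lung (-1.90 ± 0.25, 3.73-fold lower, adjusted p = 0.0029, -1.33 after quantile normalization). Sftpc, a hydrophobic surfactant protein made only by type 2 cells, fell from 14817 and 10627 to 3543 and 4262 (-1.69 ± 0.24, adjusted p = 0.0041, -1.39 after quantile normalization). Both samples of Sftpb and of Sftpc in the combined group lay below all 6 other samples as deposited. How many of all tested genes did so was not counted, and for Sftpb the naming rule required the order against untreated lung. The 99th percentile of intensity was also lower on the combined arrays (7111 to 8352) than on the others (9934 to 14547). Lyz2, lysozyme, which macrophages also make, fell from 13693 and 8966 to 3686 and 3815 (-1.57 ± 0.21, adjusted p = 0.0031, -1.32 after quantile normalization).

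The fourth member, Sftpa1, a collectin of surfactant, depended on the scale: its change was -0.61 ± 0.14 (adjusted p = 0.025) as deposited and 0.33 after quantile normalization. It also lost its call when any of 5 single samples was left out, with values of -0.43 without untreated sample a and -0.61 without combined sample a or b or without either sample of ventilation alone. Ager, the receptor that marks alveolar type 1 cells, fell from 14892 and 12468 to 4999 and 6094 (-1.30 ± 0.15, adjusted p = 0.0021, -0.83 after quantile normalization) and was the 1 member called of 5 tested type 1 genes. The club cell secretoglobin Scgb1a1 measured 10788 and 9769 in untreated and 6831 and 6763 in combined lung. Its change of -0.59 (adjusted p = 0.011) turned to 0.091 after quantile normalization and lost its call without untreated sample a (-0.52) or combined sample a (-0.60) or b (-0.58). Tff3, a trefoil peptide of mucus-secreting epithelium, rose from 182 and 206 to 668 and 593 (1.50 ± 0.25, adjusted p = 0.0071), short of the threshold without combined sample a (1.39, 0.053).

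Ribosomal protein genes gave the largest block of lower calls, and they are among the brightest on the array. Of 37 tested, none was higher and 27 were lower, with a median log2 change of -0.82. After quantile normalization 3 were higher and 8 lower, with a median of -0.09, after cyclic loess normalization 0 and 20 (median -0.41) and after median scaling 0 and 27 (median -1.0). As deposited, the 27 became 7 without combined sample a and 15 without untreated sample a. Rplp0, a protein of the large subunit stalk, fell from 19233 and 14957 to 3288 and 4921 (-2.09 ± 0.26, adjusted p = 0.0025, -1.71 after quantile normalization). Rps29 changed by -1.42 ± 0.20 (adjusted p = 0.0038, -0.67 after quantile normalization) and Rpl6 by -1.20 ± 0.18 (adjusted p = 0.0041, -0.64). The 21 other called members fell by 0.65 to 1.26. Gnas, the stimulatory G protein subunit upstream of cyclic AMP, fell from 17352 and 13795 to 3928 and 4584 (-1.87 ± 0.22, adjusted p = 0.0021, -1.50 after quantile normalization), while 2 of its other probe sets gave -0.58 and -0.25, the second not called.

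Vascular, clotting and matrix genes moved in part. Of 14 tested coagulation genes, 4 were higher and 1 lower (2 and 0 after quantile normalization, 2 and 2 after median scaling, 1 higher without combined sample a, and 0 lower without that sample, combined sample b or untreated sample a). F3, tissue factor, which starts coagulation, rose from 1909 and 1970.5 to 3444 and 3215 (0.77 ± 0.11, 1.7-fold, adjusted p = 0.004). Plat, tissue plasminogen activator, which dissolves clots, rose from 3243 and 3048 to 5743 and 5096 (0.78 ± 0.13, adjusted p = 0.0063), with its call lost without combined sample a (0.69, 0.054). In both genes the combined samples lay above the untreated ones, as in 34.4% of all tested genes.

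Ptgir, the prostacyclin receptor of vessels and platelets, fell from 893 and 747 to 202 and 277 (-1.63 ± 0.24, 3.1-fold lower, adjusted p = 0.0041). Hpgd, which inactivates prostaglandins, fell from 379 and 363 to 103 and 155 (-1.30 ± 0.23, adjusted p = 0.0088). They were the 2 called members of 15 tested lipid mediator genes, both lower. That share (13.3%) is near the 12.4% called among all tested genes. Lta4h, of the same list, was not called on the probe set used (-0.10) but was lower on another (-1.52, adjusted p = 0.0048). Car4, a carbonic anhydrase of the lung capillary surface, fell from 2646 and 2639 to 1159 and 1358 (-1.06 ± 0.12, adjusted p = 0.0019), within an endothelial list of which 1 of 15 was higher and 2 lower.

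Of 38 tested matrix and protease genes, 5 were higher and 3 lower, with 3 higher and 0 lower without combined sample a and 1 lower without either untreated sample. After quantile normalization 11 were higher and 2 lower, after cyclic loess 6 and 1, and after median scaling 4 and 4. Bgn, lower as deposited (-0.50), was called higher on its other probe set (1.19, adjusted p = 0.016). Loxl1, which crosslinks elastin, rose from 1629 and 1657 to 3192 and 4201 (1.14 ± 0.17, adjusted p = 0.0043). P4ha1, a prolyl hydroxylase of collagen, rose from 5853 and 5761 to 9723 and 9237 (0.70 ± 0.10, adjusted p = 0.0041, 1.31 after quantile normalization). Mmp8, the neutrophil collagenase, rose from 649 and 600.3 to 1666 and 1395 (1.24 ± 0.17, 2.35-fold, adjusted p = 0.0038). Each of the 3 was called in every fit in which it was tested.

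Of 7 tested genes that the liver makes in bulk, most of them for plasma proteins, 4 were higher and 1 lower, with a median log2 change of 1.32. Ttr, transthyretin, a carrier of thyroid hormone and retinol, went from 59.1 and 112 to 811 and 784 (2.77 ± 0.24, 6.82-fold, adjusted p = 0.00045). Serpina1, the inhibitor of neutrophil elastase, rose from 728 and 855 to 2433 and 2115 (1.48 ± 0.15, adjusted p = 0.001). Alb, albumin, rose from 125 and 188 to 673 and 571 (1.76 ± 0.24, adjusted p = 0.0038), although 1 of its other probe sets was not called (0.13, adjusted p = 0.76). Cyp2e1, a cytochrome of liver that lung also makes, fell from 2935 and 2737 to 1454 and 1638 (-0.86 ± 0.12, adjusted p = 0.0033). Rup2 went from 3.43 and 28.7 to 539 and 531 (3.40 ± 0.26, adjusted p = 0.00024), and Serpina3l, a serine protease inhibitor, from 41.7 and 25.8 to 194 and 183 (1.64 ± 0.29, adjusted p = 0.009). The summed intensity of the 10 measured liver markers was 5222 and 5343 in untreated and 7425 and 6730.1 in combined lung, with 2 and 1 of them at or below 0 in both samples of the group, and its part in these rises was not tested.

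Markers of other cell types differed among groups. RatNP-3b, a neutrophil defensin, rose from 8.83 and 28.7 to 295 and 263 (2.46 ± 0.30, adjusted p = 0.0024), and it measured 1117 and 1297 with ventilation alone. S100a9, another neutrophil gene, changed by -0.66 ± 0.14 as deposited (adjusted p = 0.015) and by -0.032 after quantile normalization, and lost its call without untreated sample a (-0.54) or combined sample a (-0.64) or b (-0.68). Of 7 tested neutrophil markers 2 were higher (RatNP-3b and Mmp8) and 1 lower (2 and 0 after quantile or cyclic loess normalization). Their summed intensity as deposited, in which bright markers weigh most, was 24014 and 22253 in untreated against 19237 and 19588 in combined lung. Gzmk, a granzyme of T and natural killer cells, fell from 371 and 433 to 65.2 and 52 (-2.26 ± 0.27, 4.8-fold lower, adjusted p = 0.0021). Cd3g, a subunit of the T cell receptor complex, fell from 603 and 474 to 271 and 263 (-0.90 ± 0.16, adjusted p = 0.009). These were the 2 called of 14 tested lymphocyte markers (4 lower after quantile or cyclic loess normalization or median scaling). That share (14.3%) is near the 12.4% called among all tested genes. Gzmb, of the same list, was not called on the probe set used (0.58) but was higher on another (0.93, adjusted p = 0.029). The sum over 18 measured lymphocyte markers was 5553 and 5623 in untreated, 4431 and 4221 in combined lung and 36632 and 39084 with ventilation alone. No lymphocyte marker of the 18 was at or below 0 in both samples of the untreated or the combined group, and the part of these cells in the falls of Ccl5 and Gzmk was not tested.

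Some fat and skeletal muscle genes were lower in the combined group. Ucp1, the uncoupling protein of brown fat, measured 248 and 271 in untreated, 37.8 and 31.1 in combined, 1098 and 1087 in oxygen-exposed and 6179 and 6247 in ventilated lung. Its change from untreated to combined lung was -2.01 ± 0.15 (adjusted p = 0.00019), and that of Fabp4 was -2.58 ± 0.22 (adjusted p = 0.00038), from 542 and 459 to 33.3 and 77.5. Of 8 tested fat markers 3 were lower and none higher (Lpl, for example, changed by -0.01), and the sum over 12 measured was 11632 and 11822 in untreated, 8699.5 and 10401 in combined and 20529 and 21825 in ventilated lung. Tnnc2, troponin C of fast muscle, fell from 329.9 and 415 to 23.8 and 58.5 (-2.37 ± 0.24, adjusted p = 0.00089) and stood at 3674 and 4065 with oxygen alone. Myl11, a fast muscle myosin light chain, fell by a log2 change of -2.06 ± 0.23 (adjusted p = 0.0015), and Acta1, skeletal actin, by -1.39 ± 0.13 (adjusted p = 0.00056). Of 16 tested skeletal muscle markers 6 were lower and none higher (3 lower with only the groups compared in the fit), and 10 were not called, among them Pvalb (0.20) and Myh1 (0.14). The sum over 21 measured was 10729 and 9530.1 in untreated, 7027 and 6867 in combined and 32934 and 32024 in oxygen-exposed lung. Fat and muscle RNA thus also differed between samples of the single exposures, and its part in the differences of these genes was not tested.

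Krt4, a keratin of squamous epithelium such as that of the oesophagus, read 1139.8 and 1214 in untreated and 6288 and 6826 in oxygen-exposed lung but was at or below 0 in both combined samples (-129 and -137) and both ventilated samples (-8.72 and -35.5). Its difference on the log2(intensity + 40) scale was -4.93 ± 0.18 (adjusted p = 1.4e-05). Hbb, a beta globin of red cells, fell from 19710.00 and 15091 to 2567 and 4907 (-2.29 ± 0.33, adjusted p = 0.0041, -1.92 after quantile normalization), and of 6 tested erythroid markers 1 was higher (Car2, 0.56) and 2 lower (Hbb and Hbb-b1), with a median of -0.24. Slc4a1 (0.22) and Alas2 (0.07) were not called. The sum of the 6 markers was 43184 and 35386 in untreated against 17858 and 20405 in combined lung. None of 6 tested macrophage markers was called by limma (0 higher and 1 lower at an unadjusted p under 0.05).

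**Figure D4:**
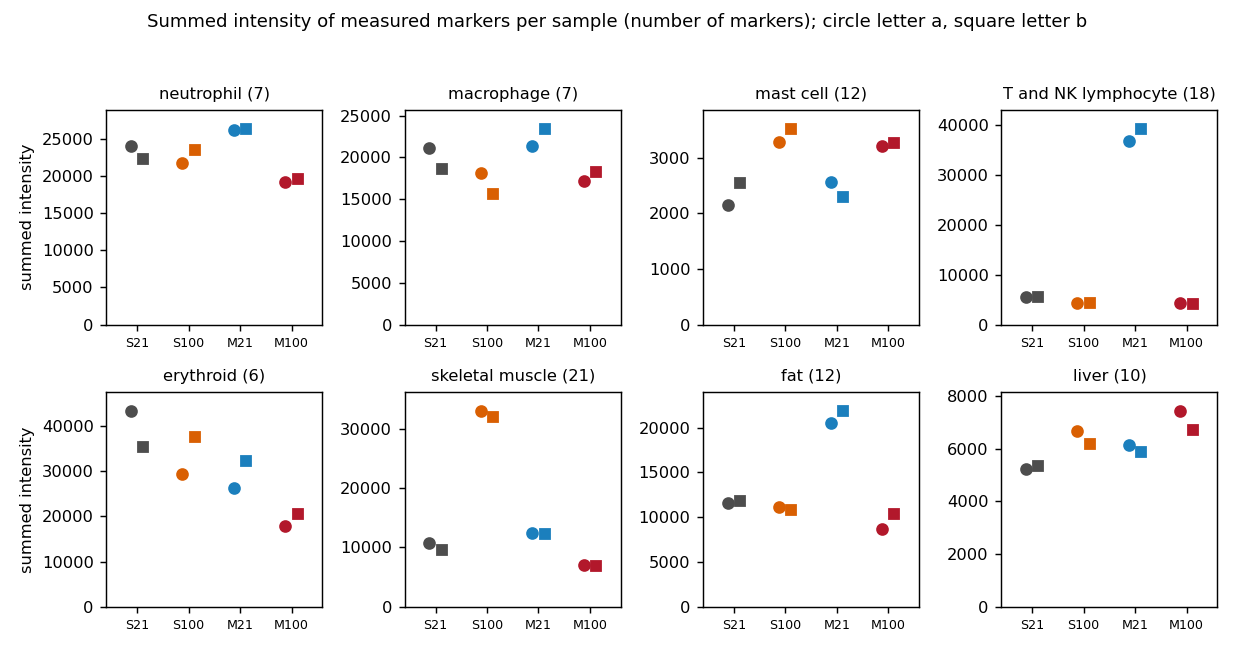
Summed intensity (vertical axis, from 0) of the measured markers of 8 cell types or tissues in each sample of the 4 groups, with values at or below 0 counted as 0 and the number of markers in each panel title. The M100 samples have the lowest sums of skeletal muscle and erythroid markers and the highest of liver markers, the T and NK sum is highest in M21, and the skeletal muscle sum is highest in S100.

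Interferon and antigen presentation genes had 3 lower calls of 17 (2 higher and 1 lower after quantile normalization). Mx2 fell from 1139 and 1171 to 246 and 314 (-1.91 ± 0.17, 3.76-fold lower, adjusted p = 0.00045), with both combined samples below all 6 others. The naming rule required this order against untreated lung, and the share of all tested genes below all 6 others was not counted. The other calls were those of 2 bright genes that turned sign after quantile normalization. B2m, the light chain of class I antigens, changed by -0.73 as deposited and 0.10 after it, with its call lost without combined sample a (-0.68). Ifitm3, which restricts virus entry, changed by -0.68 and 0.20, with its call lost without untreated sample a (-0.53) or combined sample a (-0.65) or b (-0.70).

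The calls in other lists stand beside a background of 12.4%. Of 27 tested proteasome and ubiquitin genes 3 were higher, of which Psmd11, a proteasome lid subunit, rose from 2416 and 2870.00 to 4629 and 4594 (0.80 ± 0.13, adjusted p = 0.0062). The count was 1 without untreated sample a, without combined sample a or without any 1 sample of the single exposures, and 1 after median scaling. Of 34 oxidative phosphorylation genes 6 were lower, with 1 lower without untreated sample a and 0 without combined sample a, 3 after cyclic loess normalization and 10 after median scaling. Cox8a, a subunit of cytochrome oxidase, changed by -0.96 ± 0.18 (adjusted p = 0.011), by -0.32 after quantile normalization, and lost its call without untreated sample a (-0.88) or combined sample a (-0.86). Of 22 hypoxia and glycolysis genes 1 was higher and 1 lower (1 and 3 after median scaling). Of 11 glucocorticoid responsive genes 2 were lower (2 higher and 1 lower after quantile normalization, 4 lower after median scaling). None of 18 cell cycle genes was called by limma (1 higher and 0 lower at an unadjusted p under 0.05), and none of 14 ion and water transport genes (0 higher and 2 lower). Atp1b1, of the transport list, gave -0.24 on the probe set used but was called higher on another (0.54, adjusted p = 0.027).

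**Figure D5:**
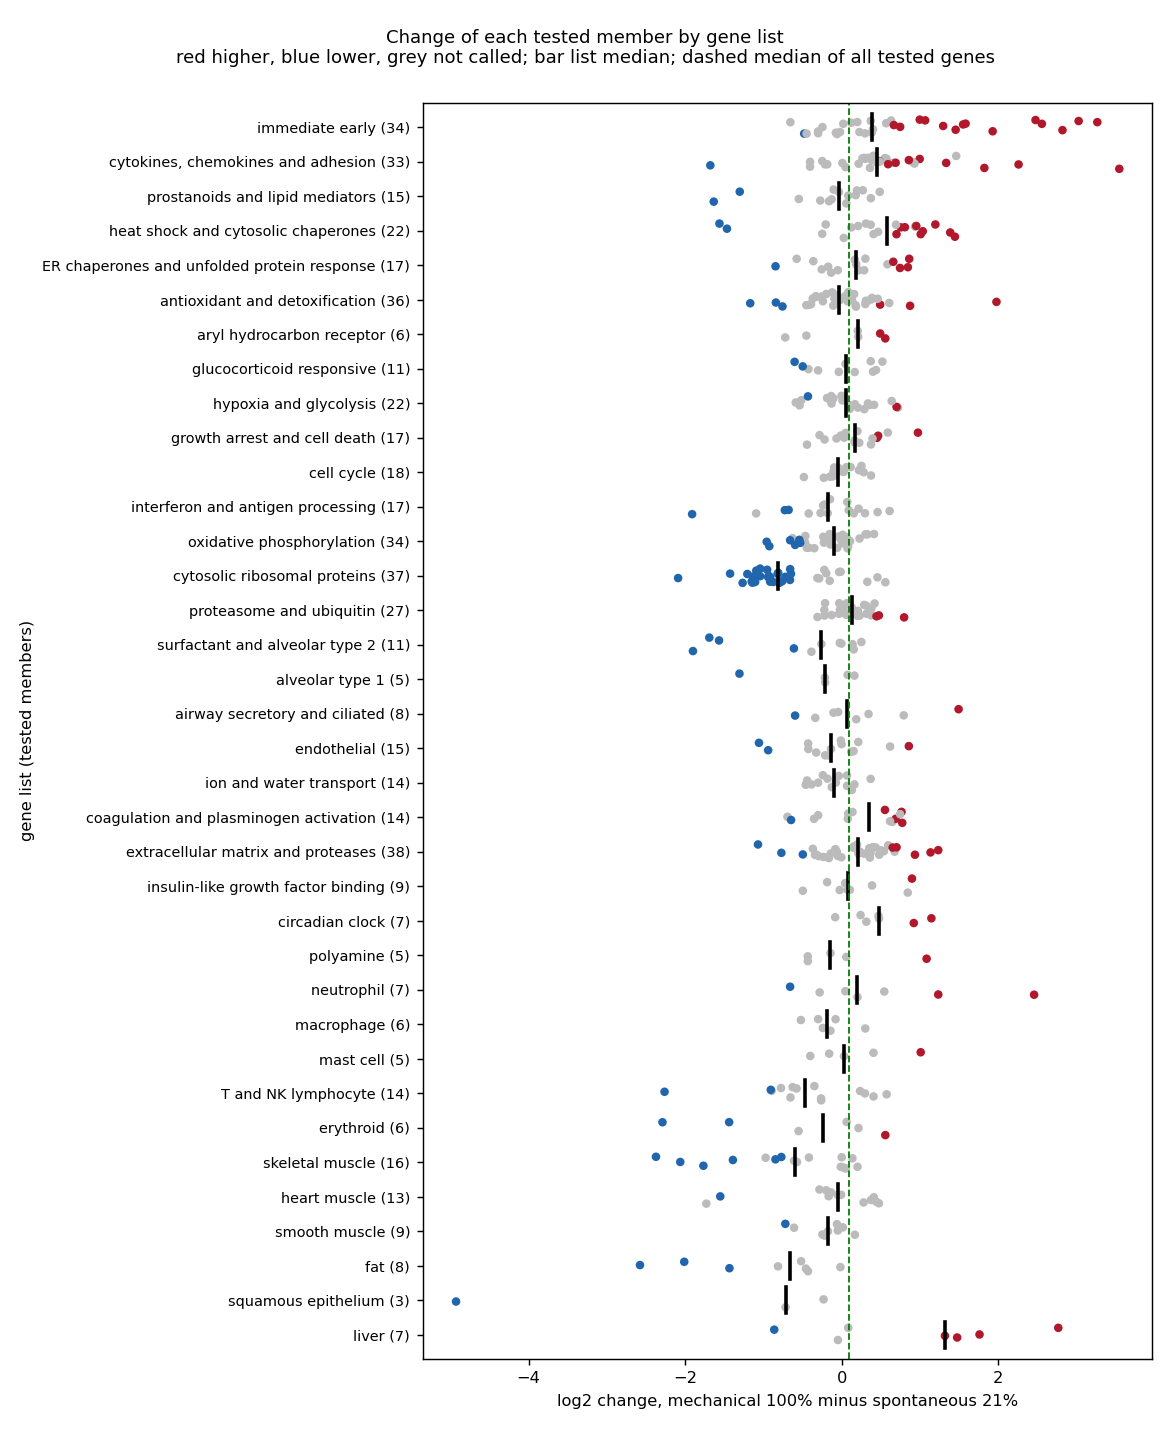
Log2 change (combined minus untreated, horizontal axis) of every tested member of each gene list with 3 or more tested members, 1 row a list with the number tested, called members in red (higher) or blue (lower), the list median as a bar and the median of all tested genes (0.09) as a dashed line. The bars of the immediate early, heat shock, cytokine and liver lists lie to the right of the dashed line and those of the ribosomal, skeletal muscle and fat lists to its left.

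Further large differences were Rgs1, which curbs G protein signalling in leukocytes, from 173 and 219 to 726 and 703 (1.68 ± 0.24, adjusted p = 0.0041), and Pvr, an adhesion receptor, from 180.2 and 151 to 644 and 561 (1.65 ± 0.24, adjusted p = 0.0041). Neither gene's samples overlapped between groups, which the naming rule required of the largest rises. In 34.4% of all tested genes both combined samples lay above both untreated ones. Or2t26, annotated as an olfactory receptor, and Alkbh7, a mitochondrial dioxygenase, were above 0 in untreated lung (347 and 347 for Or2t26, 167 and 192 for Alkbh7) and below 0 in both combined samples, with differences of -3.28 and -2.45 on the log2(intensity + 40) scale. Begain and Fut1 were also among the largest falls, but the arrays of combined sample b disagreed. Begain read 318.6 on array s2A and -409 on array s2B, and Fut1, a fucosyltransferase, 888 and 8.90. With array s2A alone neither was called (-1.71 with adjusted p = 0.22 for Begain, -1.60 with adjusted p = 0.29 for Fut1).

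The combined group was also set against each exposure alone, in the same fit. Against oxygen alone 814 of 3181 genes were called (25.6%) and against ventilation alone 1068 (33.6%), comparisons that share the combined samples with each other and with the one against untreated lung. The label descriptions of the untreated samples, of combined sample a and of array s2B carry a line for a lot, left empty, which those of the single exposures and of array s2A lack. Whatever that line stands for cannot be told apart from these comparisons except through the 2 arrays of combined sample b. With the line as a block, over 9 arrays kept apart, 477 probe sets in place of 1413 (26.9%) were called against oxygen alone and 898 in place of 1841 (35.1%) against ventilation alone. The count against oxygen alone was also 505 without combined sample a, 889 without combined sample b and 474 without sample b of oxygen alone, and that against ventilation alone 976 without combined sample a, 1139 without sample a of ventilation alone and 956 without its sample b.

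Several immediate early genes were higher in the combined group than with either exposure. They were picked for a rise over untreated lung in the same combined samples, so their calls are not on equal terms with the shares of all genes. Over the 34 tested members the median difference was 0.60 from oxygen alone and 0.69 from ventilation alone, against 0.11 and 0.12 for all tested genes. Calls over the whole list were not counted. Crem, another large rise, was also raised in both single exposures. Nr4a1 measured 1072 and 756 with oxygen alone and 559 and 648 with ventilation alone, and the combined group exceeded them by 2.69 (adjusted p = 0.0005) and 3.25 (adjusted p = 0.00011). Egr1 measured 1691 and 1640.5 with oxygen alone and 1579.5 and 1761 with ventilation alone, with differences of 1.85 and 1.85 (adjusted p = 8.6e-05 and 8e-05). Nr4a3 (2.36 and 3.30), Atf3 (1.44 and 2.02), Fos (1.01 and 1.56) and Zfp36 (0.89 and 1.96) were likewise called against both. All 6 stayed called against both with the lot line as a block, for example Nr4a3 at 1.93 (adjusted p = 0.028) and 2.87 (adjusted p = 0.0043).

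Il6 and Ccl2 had a different pattern. Il6 measured 485 and 461 with oxygen alone and 377 and 384 with ventilation alone, and the combined group differed from them by -0.13 (adjusted p = 0.66) and 0.15 (adjusted p = 0.57). Ccl2 measured 1514 and 1809.7 with oxygen alone and 1449 and 1401 with ventilation alone, with differences of -0.25 (adjusted p = 0.28) and -0.036 (adjusted p = 0.88). For both genes the single exposures thus stood near the combined level, and a p that misses the threshold does not show that the levels are equal.

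For the chaperone list the median difference was 0.0085 from oxygen alone and 0.52 from ventilation alone, against 0.11 and 0.12 for all tested genes. Its summed intensity was 88193 and 92756 in combined lung, 108672 and 132438 with oxygen alone and 84969.5 and 80846 with ventilation alone. Hspd1 measured 7629.5 and 8873 with oxygen alone and 4630.3 and 4131 with ventilation alone, with differences of 0.021 (adjusted p = 0.92) and 0.93 (adjusted p = 0.0014). Fkbp4 gave 0.16 and 1.60, St13 0.077 and 1.16, and Dnajb1 0.30 and 0.86, each called against ventilation alone and not against oxygen alone. Stip1 was called against both (0.34 and 1.38), as was Hmox1 (0.53 and 2.12), but with the lot line as a block neither was called against oxygen alone (0.26, adjusted p = 0.22, and 0.55, 0.091). Whether the differences from the 2 exposures differ was not tested.

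The genes of this paragraph were likewise picked for their difference from untreated lung in the same combined samples. Among the genes that fell, Mx2 was below both exposures (-1.75 and -1.93, adjusted p = 0.00072 and 0.00022) and stayed so with the lot line as a block (-1.50 and -1.69). Ptgir differed from oxygen alone by -1.22 (adjusted p = 0.01) and from ventilation alone by -1.94 (adjusted p = 0.0011), the first of which missed the threshold with the block (adjusted p = 0.06). Ccl5 gave -0.78 and -0.99 (adjusted p = 0.011 and 0.0028), the first also lost with the block (-0.53, adjusted p = 0.11). F3 rose above both (1.24 and 0.69, adjusted p = 0.00046 and 0.0029), with and without the block. Sftpb was below both as deposited (-1.36 and -1.49), and with the block differed by -0.81 (adjusted p = 0.1) and -0.93 (adjusted p = 0.048).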

How the data were processed

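The values are signal intensities of 8799 probe sets on 9 arrays, deposited by the authors as 1 table. The algorithm and scaling behind them are not given in the sources used here, and the arrays share a trimmed mean. From these, 59 control probe sets were left out and 8740 kept, of which 7006 have 1 gene symbol, 308 several and 1426 none in the platform annotation. Symbols of 6985 were updated by gene number. Values below 0 were set to 0, 40 was added and log2 taken, and the 2 arrays of combined sample b were averaged on that scale for the fit. Probe sets in the lowest 40% by mean were kept out of the tests. Group means over all 8 samples were fitted with limma 3.58.1 in R 4.3.3 (lmFit, eBayes with trend), with Benjamini-Hochberg adjustment over 5244 probe sets and a threshold of 0.05. The code was tested on simulated data. With 2 samples a group, the number of arrays limits the precision.

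The comparison, the gene lists and the naming rule were chosen with earlier results of these data known. The rule took the 20 largest called rises and 20 largest called falls without overlap between groups, from each list up to 6 called members of smallest p and 2 uncalled members of highest level, and 14 fixed genes. It named 201 genes, of which those described were picked after their values were seen. A gene is represented by its brightest probe set with a single symbol. Samples with the same letter did not deviate together (correlation of -0.03 between the untreated and the combined group over tested probe sets), so the letters were not used as pairs. The lot line was fitted as a block over 9 arrays kept apart, so that combined sample b counts as 2 arrays. Promoter windows come from RefSeq for build GRCr8. Overlapping matches of the same motif were counted once for every motif, a choice made after the matches were seen that changed which promoters the rule picked. The promoters printed were chosen after the values were seen, and that of Egr1, the 1 picked by the rule, is not reported here.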

Additional observations from a re-analysis of the deposited data

Results flagged for a closer look

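For genes among those named whose combined change could be set against the sum of the changes with each exposure alone, the difference was tested as an interaction of ventilation and oxygen. A positive value means that the combined level was higher than the sum of both single changes (log2 scale) gives, and a negative value that it was lower. Of these 46 genes, 25 were called by limma, 6 positive and 19 negative, against 27.0% of all 3181 tested genes. Most of the 46 were picked for a large combined change on the same arrays, which is part of the interaction. The count is therefore not on equal terms with the share of all genes. The comparison uses the single exposures, whose arrays lack the lot line, and with that line as a block 11 of the 46 were called.

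The positive ones were Nr4a1 at 2.67 (adjusted p = 0.0014), Nr4a3 at 2.63, Egr1 at 1.23, Fos at 0.99, Atf3 at 0.90 and Hmox1 at 0.67. None of these 6 was called with the lot line as a block, where Nr4a1 stood at 2.55 (adjusted p = 0.067) and Egr1 at 1.02 (adjusted p = 0.11).

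Among the negative ones, Ucp1 (-8.31) and Fabp4 (-6.53) of fat and Tnnc2 (-6.02), Tcap (-5.48) and Myl11 (-4.18) of muscle were far higher in a single exposure than in the combined group. The cytokine genes Il6 (-3.53) and Ccl2 (-2.11) rose with each exposure alone to about the combined level, and the size for Il6 depends on the offset, since both untreated samples were below 0. Ttr (-2.01), Rup2 (-2.38), Serpina3l (-1.39) and Crem (-0.96) were also raised in both single exposures. RatNP-3b (-2.72) was highest with ventilation alone. Mx2 (-1.77) and Aanat (-3.03) were lowest in the combined group. The values of Krt4 (-2.44), Alkbh7 (-3.85) and Or2t26 (-3.45) were set by the floor, since all combined arrays, and for Krt4 the ventilated ones too, were below 0. That of Krt4 only restates oxygen alone against untreated lung, and the block could not move any of the 3. With the lot line as a block, Ucp1, Fabp4, Tnnc2, Myl11, Il6 and Ccl2 stayed called with the same sign, for example Il6 at -3.62 (adjusted p = 0.011). Begain (-2.48) and Fut1 (-2.34) turned sign, to 3.06 and 4.33.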

How the results depend on the processing

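The 761 probe sets called against untreated lung became 397 with no filter on low signal, 503 with only the groups compared in the fit, 241 with the brightest 10% left out, and 312 to 683 when 1 sample was left out. The 393 higher calls became 215 with median scaling, 223 with no filter, 216 with only the groups compared, 643 at a threshold of 0.10, 116 with the brightest 10% left out and 129 to 322 without 1 sample. The 368 lower calls became 174 with no filter, 125 with the brightest 10% left out and 183 to 365 without 1 sample. Among the fits without 1 sample, the lowest of these counts came without combined sample a. The 1413 calls against oxygen alone became 796 with no filter, 477 with the lot line as a block, 706 with the brightest 10% left out and 474 to 1423 without 1 sample. The 1841 against ventilation alone became 898 with the lot line as a block, 1211 with the brightest 10% left out and 956 to 1904 without 1 sample. The 1439 interaction calls became 159 with the lot line as a block, and the interaction has no value from only the groups compared. The cause was not tested. Median scaling moved the share of higher calls from 61.4% to 36.7% against oxygen alone, from 58.9% to 34.6% against ventilation alone (48.6% with quantile normalization) and from 61.7% to 39.0% for the interaction. With the letter as a replicate block, 641 probe sets were called against untreated lung, 311 higher and 330 lower. Among the named genes that turned sign, Hspa1a went to 0.064 with quantile and 0.031 with loess normalization, Sftpa1 to 0.33, Scgb1a1 to 0.091, B2m to 0.10 and Ifitm3 to 0.20 with quantile normalization, Egr1 to -0.30 and Hspb1 to 0.0066 on another probe set. Bgn (1.19), Hsp90b1 (0.47 and 0.15), Prdx6 (0.54) and Mcpt1l1 (-0.68) also turned sign on another probe set. So did further genes that the rule names, such as Calr, from -0.57 (not called) to 1.13 (called). Of 126 called genes that the rule names, 57 kept their call under all 23 alternatives wherever they were tested.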

Other observations

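Further gene lists, compared between the combined and the untreated group over 1 probe set a gene, are given as counts beside the 12.4% called and the median log2 change of 0.09 of all tested genes. Of 17 growth arrest and cell death genes 3 were higher, with a median of 0.17, but 1 was higher and 2 lower after quantile normalization or median scaling, 1 was higher with the letter as a replicate block or without a variance trend, and 0 with only the groups compared in the fit. Of 7 circadian clock genes 2 were higher (median 0.47), and 0 were higher without either untreated sample or without combined sample a. After any of 3 other scalings (quantile, cyclic loess, median) 1 clock gene was higher. Of 6 aryl hydrocarbon receptor genes 2 were higher and 0 lower as deposited, but 0 and 2 after quantile or cyclic loess normalization and 0 and 1 after median scaling or with the replicate block. Of 9 insulin-like growth factor genes 1 was higher as deposited, and 0 higher and 1 lower after each of these 3 scalings. Of 5 polyamine genes 1 was higher (2 after quantile normalization). Of 13 heart muscle markers 1 was lower, and of 9 smooth muscle markers 1 was lower (2 after quantile normalization or median scaling). Of 5 mast cell markers 1 was higher (0 after each of these 3 scalings), and the 1 tested B lymphocyte marker was lower. The higher mast cell marker was Mcpt1l1 (1.01), whose other probe set was not called (-0.68).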
